A study of Mus musculus with 6 samples.

Results

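Interferon gamma and the genes that control the T helper 1 (Th1) programme were followed in stimulated natural regulatory T cells (nTreg cells) from mice with a T cell knockout of the splicing factor gene Srsf1 and from WT mice. The group holds 8 genes chosen by name: the cytokine gene Ifng, the transcription factor genes Tbx21, Eomes and Stat4, the interleukin-12 receptor genes Il12rb1 and Il12rb2, and the interferon gamma receptor genes Ifngr1 and Ifngr2. In the tables, which write symbols in capitals, they are IFNG, TBX21, EOMES, STAT4, IL12RB1, IL12RB2, IFNGR1 and IFNGR2. All 8 were found among the 24982 symbols of the count table, and all 8 were among the 11772 genes with enough counts to be tested. The KO libraries came from mice of genotype Srsf1-flox/flox dLck.Cre, in which Cre is driven by the distal Lck promoter, active in mature T cells, and the control libraries from mice labelled WT, with no allele named. Each genotype had 3 libraries, from 3 mice per genotype by the series' design text. The mice were of strain B6.129 and 8 to 10 weeks old. CD4+CD25+CD127lo nTreg cells were sorted from spleen T cells, and cells of both genotypes were given anti-CD3 at 2 µg/ml, anti-CD28 at 2 µg/ml and recombinant interleukin-2 at 10 ng/ml for 72 h. The labels' source field instead names Th0 effector CD4 T cells.

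Th1 cells are the helper T cells that make interferon gamma, which activates macrophages and raises antigen presentation. Interleukin-12 binds a receptor made of the chains encoded by Il12rb1 and Il12rb2 and activates STAT4, and STAT4 together with T-bet, the product of Tbx21, drives transcription of Ifng. Interferon gamma signals through a receptor of a ligand-binding chain (Ifngr1) and a signalling chain (Ifngr2) to Janus kinases inside the cell. Regulatory T cells can switch on T-bet while they keep Foxp3, and such cells are known to restrain Th1 responses.

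Total gene counts ran from 10183626 to 20373649 in the KO libraries and from 23263741 to 27562046 in the WT libraries, so each KO library was shallower than each WT library. Srsf1 was at 438, 812 and 787 CPM (the share of a library's counts that fall on a gene, scaled to one common total and normalised between libraries) in KO replicates 1, 2 and 3, against 1214, 1230 and 755.5 CPM in WT replicates 1 and 2 and the library labelled WT replicate 3. The last therefore lay below 2 KO libraries, and its label is not borne out by Srsf1, although whole-gene counts also hold exons outside a deleted part. The log2 fold change of Srsf1 in KO over WT was -0.65 (SE 0.32, edgeR adjusted p = 0.682). The lower level of the targeted gene was thus not resolved from the spread between libraries. In some other genes the library labelled WT replicate 3 lay with WT. Cd8b1 was at 12.3 to 14.1 CPM in KO, 75.3 and 93.3 CPM in the other WT libraries and 87.2 CPM in it. Foxp3 and Satb1, given further on, were also on the WT side there. These 3 genes stood out in the comparison that took this library as WT, so they do not test its label. KO replicate 1 stood apart: across 11674 genes its deviation from the mean of the 6 libraries followed the GC content of the transcript with a Spearman correlation of 0.813, against -0.577 to -0.126 in the other 5 libraries. That mean includes KO replicate 1, so the opposite sign in the other 5 is partly built in. The Srsf1 transcript has a GC content of 40.6%, and in KO replicate 1 Srsf1 stood at -0.914 from that mean on the log2 scale. Replicate 2 of both genotypes held counts of Y-linked genes (4227 in KO and 7776 in WT), and the other 4 libraries had at most 2. Of 2 genes of the sorted type, Foxp3 was at 357 to 464 CPM in KO and 104 to 159.6 CPM in WT, and Il2ra (CD25), which stimulated T cells also express, at 3300.3 to 6879.6 CPM in KO and 4073 to 6566 CPM in WT. All 11 Treg markers in the table were detected, and Ctla4 ran the other way from Foxp3 (-0.79, SE 0.46). Cd8a, a CD8 T cell gene, was at 26.6 to 46.9 CPM in KO and 118 to 176 CPM in WT.

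The proximal promoters of Ifng and Il12rb2 are shown because Ifng is the output of the programme and Il12rb2 the gene of the group that lay furthest apart between the genotypes. Both are the 250 bases before the transcription start, read 5′ to 3′ on the strand of the gene, from RefSeq on GRCm38.p6, a later build than that of the counts. The Ifng window is chr10:118440796-118441045 on the plus strand and the Il12rb2 window chr6:67376189-67376438 on the minus strand. Capitals mark matches to 4 motifs searched on both strands, none of which overlapped another here. The core of the T-box site was searched as TCACAC. The gamma-activated site bound by STAT proteins was searched as TTCNNNGAA. The AP-1 site was searched as TGANTCA. The letters TATAAA stood for the element that places the start of transcription in many genes, called the TATA box.
Ifng: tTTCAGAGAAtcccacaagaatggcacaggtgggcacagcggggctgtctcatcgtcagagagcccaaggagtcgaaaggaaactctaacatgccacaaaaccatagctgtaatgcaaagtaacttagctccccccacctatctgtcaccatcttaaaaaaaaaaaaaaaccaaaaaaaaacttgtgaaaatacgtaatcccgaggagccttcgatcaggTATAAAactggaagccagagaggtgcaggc
Il12rb2: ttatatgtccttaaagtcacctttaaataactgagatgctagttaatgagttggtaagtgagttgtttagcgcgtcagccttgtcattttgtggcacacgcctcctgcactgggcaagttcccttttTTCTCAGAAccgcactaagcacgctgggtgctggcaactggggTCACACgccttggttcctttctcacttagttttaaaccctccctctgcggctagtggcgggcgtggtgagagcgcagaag
In Ifng the capitals are a gamma-activated site that begins 249 bases and a TATA box that begins 30 bases before the start. In Il12rb2 they are a gamma-activated site that begins 123 bases and a T-box core that begins 80 bases before the start. Among all 32851 promoter windows of this length in the table, 12.3% held the T-box core, 7.02% the gamma-activated site, 6.75% the AP-1 motif and 12.4% the TATA box. The windows of Tbx21, Eomes, Stat4, Ifngr1 and Ifngr2 held no match to any of them, which says only that these letters are not in those windows, and Il12rb1 had no entry. A match describes the sequence and shows no binding.

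Per transcript length, in the deposited FPKM values, Ifng was the most abundant gene of the group in every library but the one labelled WT replicate 3, where Il12rb2 was. In KO libraries the order by mean was Ifng (138 to 279 FPKM), Il12rb2 (30.7 to 78.6), Ifngr1 (41.8 to 44.8), Stat4 (22.1 to 44.7), Tbx21 (25.2 to 52.1), Il12rb1 (16.5 to 63.0), Ifngr2 (10.1 to 12.1) and Eomes (4.60 to 7.48). Only the steps below Ifng, below Il12rb1 and below Ifngr2 were clear of overlap there. In WT libraries the order was Il12rb2 (89.4 to 260), Ifng (118 to 207), Stat4 (43.1 to 55.9), Ifngr1 (25.2 to 54.9), Tbx21 (19.7 to 31.7), Il12rb1 (16.6 to 26.6), Ifngr2 (10.4 to 12.1) and Eomes (2.54 to 4.10), and Il12rb2 and Ifng overlapped. The interferon gamma receptor's signalling chain and Eomes were thus the 2 scarcest transcripts in all 6 libraries. The place of Il12rb2 was the main difference in order: it held place 1 or 2 in every WT library, and places 5, 4 and 2 in KO replicates 1, 2 and 3.

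**Figure D1:**
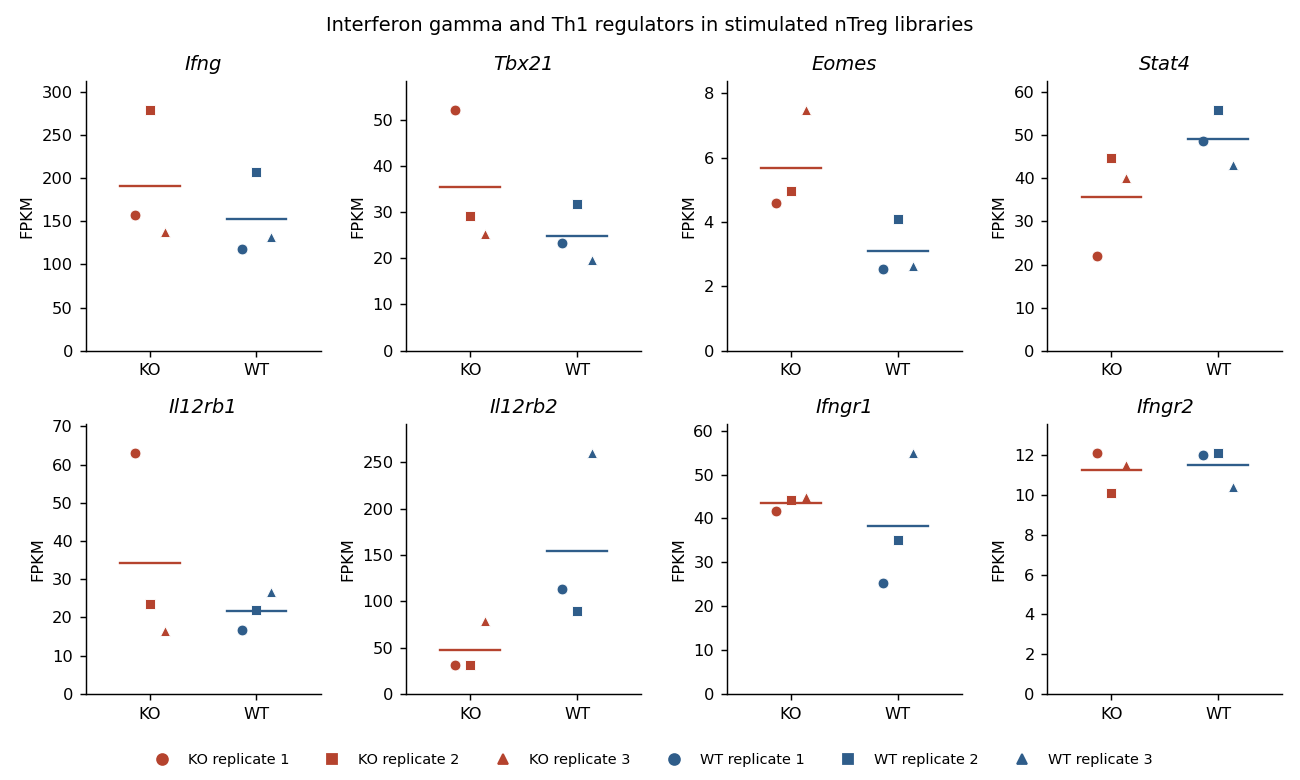
FPKM of the 8 genes in each library, with KO (red) left of WT (blue), symbols for replicates 1 to 3 and a line at each group's mean. Il12rb2 and Eomes are the only genes whose groups are separate on this scale, and KO replicate 1 is the high point for Tbx21 and Il12rb1 and the low point for Stat4.

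No gene of the group passed the threshold, an adjusted p under 0.05 over all genes tested in edgeR's quasi-likelihood test: 0 of 8, where 0.0170% of all genes did. DESeq2 also called 0 of 8, where it called 0.901% of genes. At an unadjusted p under 0.05, edgeR had 2 of the 8, Eomes and Il12rb2, against 7.51% of all genes. In 1 of the 8, Il12rb2, all KO libraries lay below all WT libraries in CPM, as in 8.18% of genes, and in 0 of 8 all KO libraries lay above, as in 7.48%. Groups without overlap in either direction made up 15.7% of all genes. The values below are therefore differences that were not resolved from the spread between libraries. In these bulk samples fewer cells of a kind and less RNA per cell cannot be told apart.

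Ifng, the output of the programme, was at 188, 393 and 198 CPM in KO replicates 1, 2 and 3, against 173, 284 and 176 CPM in WT replicates 1 and 2 and the library labelled WT replicate 3. The groups overlapped, and in each group replicate 2 was the high library while the other 2 lay close together. The log2 fold change in KO over WT was +0.30 (SE 0.35, edgeR adjusted p = 0.818), and it was -0.13 without KO replicate 2. Both high libraries are the 2 with Y-linked counts. The 2 are taken as male and the other 4 as female. As each male library is replicate 2 of its genotype, sex cannot be told apart from anything else shared by that number. Within the 4 female libraries, Ifng averaged 193 CPM in KO and 174 CPM in WT, a difference of 0.15 on the log2 scale, and between the 2 male libraries the difference was 0.47. In a fit with sex as a covariate, chosen after seeing the data, the sex term of Ifng, male over female, was 0.87 on the log2 scale (SE 0.24, edgeR adjusted p = 1, 2 against 4 libraries), and the KO term was +0.25. Between 1977 and 7241 reads per library stood behind these values.

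By the root mean square difference of centred log2 CPM over the 6 libraries, the genes most like Ifng were Dnah7a (0.179), a dynein heavy chain, Icos (0.181), a T cell costimulatory receptor, D1Ertd622e (0.188), Slc26a2 (0.199), a sulphate transporter, and Lcor (0.211), a nuclear receptor corepressor. They share with Ifng the high KO replicate 2: Icos, for example, was at 304, 613 and 384.5 CPM in KO and at 361, 439.6 and 264 CPM in WT. No regulator in the group was close to Ifng by this measure. Ifngr2 had the smallest difference, at 0.482, place 2716 of 10026 genes compared, and Tbx21 was at place 3418 (0.510). A gene that varies little can have a small difference without following Ifng. In KO replicate 2, where Ifng was highest at 393 CPM, Ifngr2 was at 27.0 CPM, its lowest value in KO. The farthest was Il12rb2 at place 9958 (1.42). With 6 libraries such likeness describes these libraries only.

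Tbx21 encodes T-bet, the T-box factor that defines Th1 cells. It was at 148, 95.9 and 83.7 CPM in KO replicates 1, 2 and 3, against 80.0, 102 and 61.1 CPM in WT replicates 1 and 2 and the library labelled WT replicate 3. KO replicate 1 alone lay above the WT range. Its log2 fold change was +0.43 (SE 0.30, edgeR adjusted p = 0.749), and +0.15 without KO replicate 1. The Tbx21 transcript is rich in GC (59.3%, at percentile 95.1 of genes with a value), and with a correction for GC content and length the log2 fold change was +0.07. Without both the library labelled WT replicate 3 and KO replicate 1 it was +0.003. It was 0.67 within the female libraries and -0.09 between the male ones.

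Eomes, the T-box relative of T-bet known from CD8 T cells and natural killer (NK) cells, was at 19.6, 24.8 and 37.0 CPM in KO, against 13.0, 19.7 and 12.3 CPM in WT. The groups touched in CPM, where KO replicate 1 lay just under WT replicate 2, and were separate in FPKM, where KO values were 4.60, 4.95 and 7.48 and WT values 2.54, 4.10 and 2.63. The log2 fold change was +0.85 (SE 0.34, edgeR adjusted p = 0.651). It stayed above 0 when any 1 library was left out (+0.55 to +1.09), at +0.76 with the GC and length correction, and at +0.93 with KO replicate 1 left out along with the library labelled WT replicate 3. It was 1.09 within the female libraries and 0.33 between the male ones. Its lowest adjusted p, 0.0688, came from limma voom with quality weights, and its highest was 0.999. Between 287 and 502 reads per library stood behind it, the fewest of the group. An antisense gene overlaps Eomes in the GRCm38 annotation, and the strand setting of the counting is not given, so its reads may be included; the same holds for predicted genes that overlap Ifng and Stat4.

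The ratio of Tbx21 to Eomes in FPKM, which does not depend on scaling between libraries, was 11.3, 5.90 and 3.37 in KO replicates 1, 2 and 3, against 9.16, 7.73 and 7.48 in WT replicates 1 and 2 and the library labelled WT replicate 3. The ratio is not corrected for GC content, which is 59.3% in the Tbx21 transcript and 53.9% in that of Eomes. Tbx21 exceeded Eomes in all 6 libraries. KO libraries lay on both sides of the WT libraries. The difference of the mean log2 ratios was -0.41 (an exact two-sided permutation test over libraries gave p = 0.5, adjusted p = 0.6 over 3 ratios, where 3 against 3 libraries allow no p below 0.1). It was 0.02 without KO replicate 3.

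Il12rb2 encodes the interleukin-12 receptor chain that recruits STAT4 and whose amount is known to decide whether a T cell answers interleukin-12. It was at 86.4, 118 and 309.9 CPM in KO replicates 1, 2 and 3, against 432, 342 and 978 CPM in WT replicates 1 and 2 and the library labelled WT replicate 3. The KO libraries lay below the WT libraries, but KO replicate 3 came near WT replicate 2, and replicate 3 was the highest of its group in both genotypes. Its log2 fold change of -1.77 (SE 0.56) was the largest of the group, with an edgeR adjusted p of 0.529 and a DESeq2 adjusted p of 0.0784. Its size rested on single libraries: it was -1.18 without the library labelled WT replicate 3, -2.53 without KO replicate 3 and -0.84 without both the library labelled WT replicate 3 and KO replicate 1. With the GC and length correction it was -1.74. It was -1.99 within the 4 female libraries and -1.54 between the 2 male ones. Serbp1 overlaps Il12rb2 on the other strand in the GRCm38 annotation, and was at 1273, 2623 and 3083 CPM in KO and 3260.0, 2229.9 and 2056 CPM in WT. Both genes were highest in replicate 3 among KO libraries, and in WT the library labelled replicate 3 had the lowest Serbp1 and the highest Il12rb2. The part of Serbp1 reads in the values of Il12rb2 was not tested.

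Il12rb1, the receptor chain shared by interleukin-12 and interleukin-23, was at 212, 90.9 and 64.8 CPM in KO replicates 1, 2 and 3, against 66.7, 82.9 and 97.9 CPM in WT replicates 1 and 2 and the library labelled WT replicate 3. Again KO replicate 1 alone lay above the WT range, and KO replicate 3 was the lowest of all. The log2 fold change was +0.57 (SE 0.42, edgeR adjusted p = 0.754), and it was -0.08 without KO replicate 1. Its transcript is GC-rich as well (58.4%, at percentile 92.7), and the GC and length correction left +0.09. Within the female libraries it was 0.535 and between the male ones 0.13. In KO replicate 1 Il12rb1 stood 1.18 above the mean of the 6 libraries on the log2 scale and Tbx21 0.69 above it.

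Within a library the ratio of Il12rb2 to Il12rb1 in FPKM was 0.487, 1.33 and 4.77 in KO replicates 1, 2 and 3, against 6.82, 4.09 and 9.77 in WT replicates 1 and 2 and the library labelled WT replicate 3. The ratio in KO replicates 1 and 2 lay below every WT ratio, and KO replicate 3 lay within the WT range. No correction for GC content was made, which is 48.2% in the Il12rb2 transcript and 58.4% in that of Il12rb1. KO replicate 1, with the lowest ratio, is the library whose deviations followed GC content. The mean log2 ratio was 0.54 ± 1.65 in KO and 2.70 ± 0.63 in WT (SD, n = 3 each), a difference of -2.15 for which the exact two-sided permutation test gave p = 0.2 (adjusted p = 0.6 over 3 ratios). With 1 library left out the difference ran from -3.01 to -1.36.

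Stat4, the signal transducer of the interleukin-12 receptor, was at 69.4, 155 and 142 CPM in KO, against 179.8, 191 and 145 CPM in WT, and KO replicate 2 lay above the library labelled WT replicate 3. The log2 fold change was -0.49 (SE 0.32, edgeR adjusted p = 0.734) and -0.21 without KO replicate 1, the low library. With the GC and length correction it was -0.36. It was -0.70 within the female libraries and -0.30 between the male ones. The Stat4 transcript has a GC content of 45.4%, at percentile 28.7, and in KO replicate 1 its difference from the mean of the 6 libraries was -1.01 on the log2 scale.

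**Figure D2:**
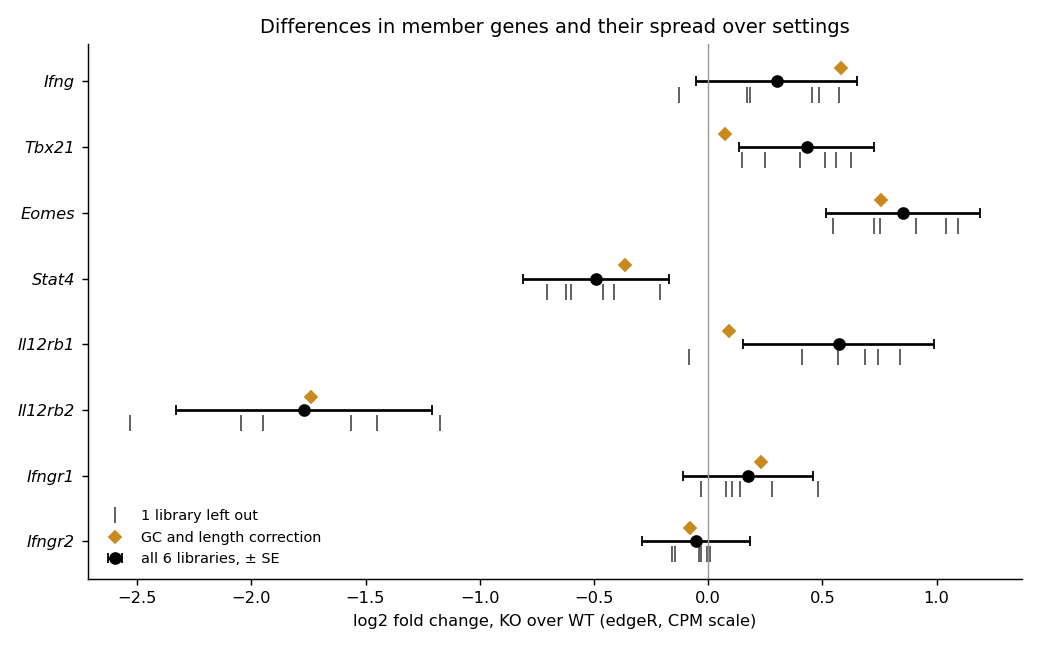
Log2 fold change of each gene, KO over WT, with its standard error (black), the 6 values with 1 library left out (grey ticks) and the value after the GC and length correction (yellow). Eomes stays above 0 and Il12rb2 and Stat4 below 0 in all of these, while Tbx21 and Il12rb1 move to +0.07 and +0.09 with the correction.

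Of the receptor for interferon gamma, the ligand-binding chain Ifngr1 was at 96.0, 118 and 125 CPM in KO, against 70.5, 90.7 and 139 CPM in WT. The KO values lay inside the WT range, which was the wider one (SD 15.0 CPM in KO and 35.0 CPM in WT, n = 3 each). Ifngr1 had a log2 fold change of +0.17 (SE 0.29, edgeR adjusted p = 0.865), -0.03 without WT replicate 1 and +0.48 without the library labelled WT replicate 3. The signalling chain Ifngr2 was the steadiest gene of the group, at 28.5, 27.0 and 31.9 CPM in KO, against 33.2, 31.4 and 26.1 CPM in WT. Its log2 fold change was -0.05 (SE 0.24, edgeR adjusted p = 0.948). By sex the difference was 0.15 in females and 0.375 in males for Ifngr1, and 0.03 in females and -0.22 in males for Ifngr2. The ratio of Ifngr2 to Ifngr1 in FPKM was 0.290, 0.230 and 0.256 in KO, against 0.475, 0.347 and 0.189 in WT, so the ligand-binding chain exceeded the signalling chain in every library. The log2 ratios differed by -0.29 (exact two-sided permutation p = 0.6, adjusted p = 0.6 over 3 ratios), and by 0.01 without WT replicate 1.

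**Figure D3:**
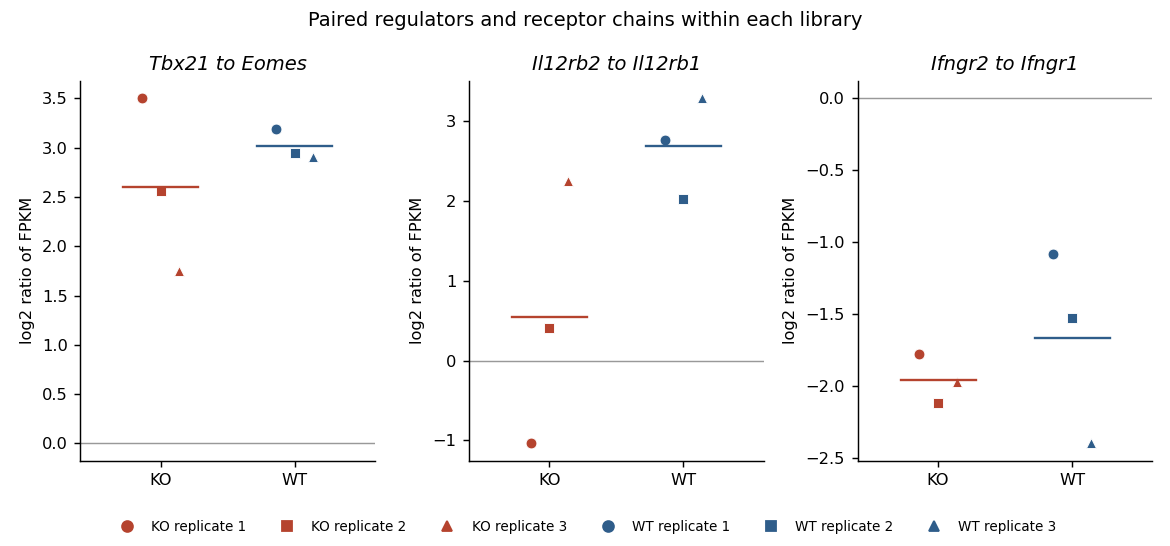
Log2 ratio of FPKM within each library for 3 pairs of genes, with KO (red) left of WT (blue), symbols for replicates and a line at each mean. Il12rb2 to Il12rb1 averages 0.54 in KO and 2.70 in WT, with KO replicate 3 inside the WT range.

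**Figure D4:**
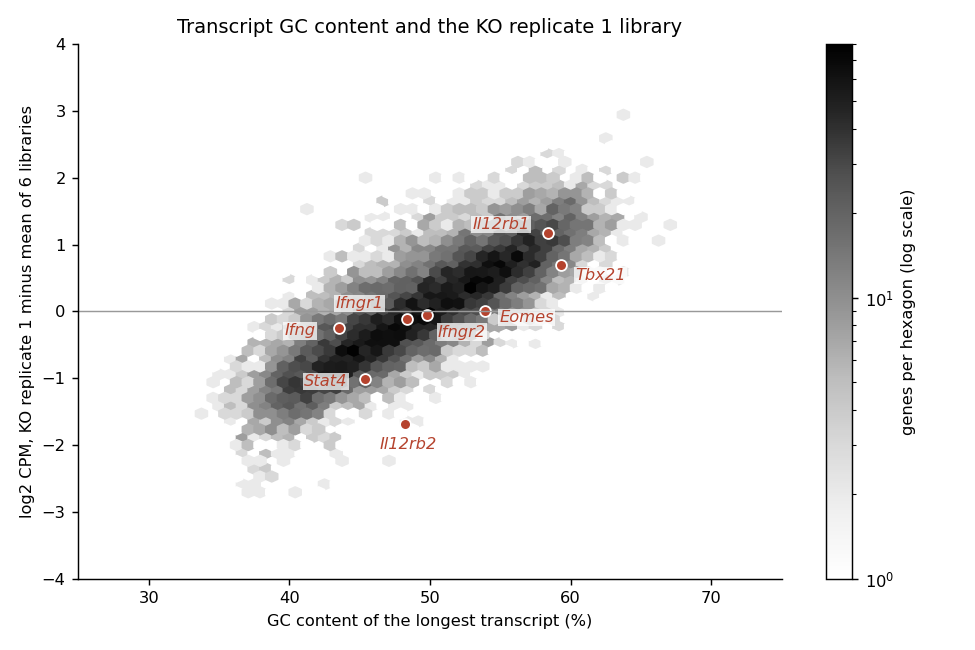
Deviation of KO replicate 1 from the mean of the 6 libraries (log2 CPM) against the GC content of the longest transcript, for 11674 genes (hexagons shaded by number of genes, log scale) and the 8 genes named (red). Of the 8, Il12rb1 (1.18) and Tbx21 (0.69) lie highest, and Stat4 (-1.01) and Il12rb2 (-1.68) lowest.

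The genes around the group were read from 5 lists, in none of which a gene passed the threshold in edgeR. Interleukin-12 and interleukin-18 receptor signalling had 18 of 20 genes tested, 0 called, and 12 above 0 (66.7%, where 51.6% of all genes were above 0), and their median log2 fold change was +0.28, against +0.02 over all genes tested (+0.17 without KO replicate 1). At an unadjusted p under 0.05 edgeR had 3 higher and 1 lower, where 4.75% of all genes were higher and 2.76% lower. DESeq2 called 0. The interleukin-18 receptor chains led it: Il18rap was at 20.3, 40.5 and 12.5 CPM in KO and 9.0, 12.0 and 5.3 CPM in WT (+1.47, SE 0.49), and Il18r1 stood at +0.74 (SE 0.31). Il18r1 passed in limma voom with quality weights (adjusted p = 0.0114) and without the library labelled WT replicate 3 and KO replicate 1 (edgeR adjusted p = 0.0369). Ebi3, a cytokine subunit of interleukin-27 and interleukin-35, stood at +1.04 (SE 0.45) and at +0.35 without KO replicate 1. Il23a, the interleukin-23 subunit, was near 1 CPM, with means of 0.834 CPM in KO and 1.78 CPM in WT (-1.11, SE 0.49). EdgeR adjusted p of these 4 ran from 0.568 to 0.66. Il12b, the other subunit of interleukin-12, was listed at 0 in all libraries.

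Interferon gamma receptor signalling had 14 of 15 genes tested, 0 called, 11 above 0 and 0 at an unadjusted p under 0.05 in edgeR, with a median of +0.23, and DESeq2 called 0. Irf9 (+0.52, SE 0.24) and Irf1 (+0.63, SE 0.30), both interferon response factors, had edgeR adjusted p of 0.667 and 0.679. Socs1, the feedback inhibitor, was at 296, 45.3 and 53.0 CPM in KO and at 46.7, 55.0 and 50.2 CPM in WT. Its log2 fold change of +1.38 (SE 0.66, edgeR adjusted p = 0.668) came from KO replicate 1 and was -0.04 without it.

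Genes that T-bet controls or that mark Th1 cells had 29 of 29 tested, 0 called, 21 above 0 (72.4%) and a median of +0.77. At an unadjusted p under 0.05, 12 were higher and 2 lower in edgeR, where 4.75% of all genes were higher and 2.76% lower. DESeq2 called 5 of them, where it called 0.901% of all genes. All 5 were higher in KO: Cxcr3, Havcr2, Klrg1, Cxcr6 and Ccl3. Havcr2, which encodes the inhibitory receptor TIM-3 of Th1 cells, was at 27.9, 50 and 45.8 CPM in KO, against 13.9, 18.7 and 14.5 CPM in WT (+1.39, SE 0.30, edgeR adjusted p = 0.331, DESeq2 adjusted p = 0.0101). It was also called by edgeR with the GC and length correction (adjusted p = 0.0459). The chemokine receptor Cxcr6 stood at +1.69 (SE 0.41), the chemokine Ccl3 at +1.86 (SE 0.47) and the lymphotoxin gene Lta at +0.9987 (SE 0.25), each without overlap between groups and with edgeR adjusted p of 0.371 to 0.404. In 8 genes of the list all KO libraries lay above all WT libraries, as in 7.48% of all genes. In 3 all KO libraries lay below all WT libraries, as in 8.18% of all genes. These 3 were the granzyme gene Gzmb (-1.20, SE 0.34), the death ligand gene Fasl (-0.998, SE 0.37) and the transcription factor gene Bhlhe40 (-0.55, SE 0.25). Their edgeR adjusted p were 0.456, 0.637 and 0.663. Gzmb was at 1820, 2155 and 3477 CPM in KO, against 5233, 4222 and 7644 CPM in WT. Without KO replicate 1 the list's median was +0.30, with 19 of 29 above 0, and without the library labelled WT replicate 3 it was +0.84, with 22 of 29 above 0. With the GC and length correction, added after seeing the data, it was +0.816, with 20 of 29 above 0. Several of these genes are also used by CD8 T cells and NK cells.

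Genes induced by interferon gamma had 28 of 30 tested, 0 called, and 25 above 0 (89.3%), with a median of +0.61. At an unadjusted p under 0.05, 10 were higher and 0 lower in edgeR, where 4.75% of all genes were higher and 2.76% lower. The number higher was 5 without WT replicate 1 or without the library labelled WT replicate 3. It was 15 with the GC and length correction, a setting added after seeing the data. The genes with the smallest p were Gbp3, Gbp5 and Gbp7, which encode guanylate-binding GTPases of defence against microbes inside cells, and Serpina3g. Gbp5 was at 103, 142 and 81.3 CPM in KO, against 41.3, 60.4 and 32.2 CPM in WT (+1.29, SE 0.31, edgeR adjusted p = 0.371), Gbp3 stood at +1.16 (SE 0.28) and Gbp7 at +1.20 (SE 0.33). Of the other Gbp genes in the list, Gbp2 (+0.56), Gbp4 (+0.70) and Gbp6 (+0.59) overlapped between the groups. The protease inhibitor gene Serpina3g stood at +1.299 (SE 0.40, edgeR adjusted p = 0.529). DESeq2 called Gbp5 and Gbp3 (adjusted p = 0.0459 and 0.0486), where it called 0.901% of all genes. The list's median was +0.435 without KO replicate 1, with 22 of 28 above 0, and +0.49 without the library labelled WT replicate 3, with 25 of 28 above 0. Ifng itself stood at +0.30 in the same libraries, and many of these genes also answer type I interferons.

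The list of opposing lineage regulators also holds broadly used factors such as Ets1, Nfatc1, Nfatc2 and Dnmt1, so its counts do not describe opposing lineages alone. It had 30 of 30 tested, 0 called, 22 above 0 (73.3%), and a median of +0.36. At an unadjusted p under 0.05 edgeR had 5 higher and 1 lower, where 4.75% of all genes were higher and 2.76% lower. DESeq2, which called 0.901% of all genes, called Foxp3 (+1.66) and Satb1 (-1.04). Foxp3, the factor that defines regulatory T cells and restrains their cytokine genes, stood at +1.68 in edgeR (SE 0.25, adjusted p = 0.197). Satb1, a chromatin organiser that Foxp3 is known to repress, was at 453, 455.5 and 654 CPM in KO, against 1145, 913 and 1118 CPM in WT (-1.02, SE 0.25, edgeR adjusted p = 0.371). Nfatc1 and Ikzf2 stood at +0.90 (SE 0.29) and +0.91 (SE 0.32), with edgeR adjusted p of 0.551 and 0.593.

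**Figure D5:**
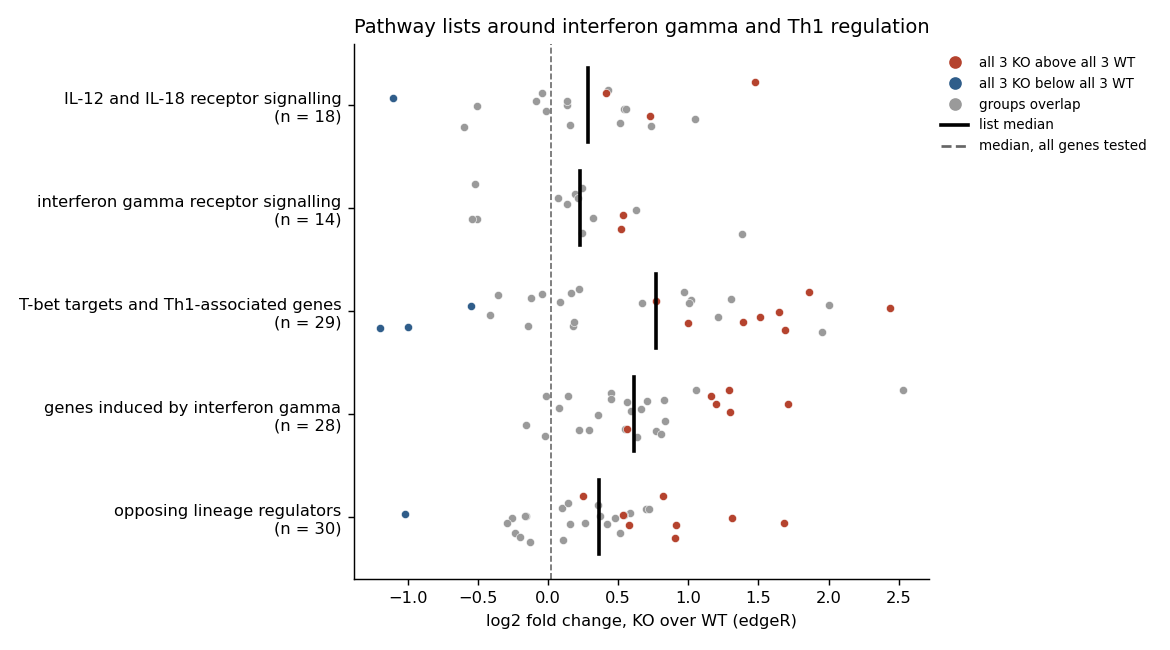
Log2 fold change, KO over WT, of each tested gene in the 5 lists (points, spread vertically to be seen), coloured by whether all 3 KO libraries lay above (red) or below (blue) all 3 WT libraries. List medians (black bars) run from +0.23 to +0.77, against +0.02 for all genes tested (dashed line).

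Treg markers, Foxp3 among them, summed to 6160 to 9000 CPM in KO and 5640 to 8760 CPM in WT (9 of 11 above 0). Most of each sum was Il2ra. Of the 11, edgeR called 0, and 7 were higher at an unadjusted p under 0.05, where 4.75% of all genes were. In 7 of the 11 all KO libraries lay above all WT libraries, as in 7.48% of all genes. CD4 T cell markers summed to 1430 to 1670 CPM in KO and 1240 to 1330 CPM in WT (6 of 8 above 0). Other cells that make interferon gamma were followed by their markers too. Of the CD8 T cell markers outside the group, 1 of 5 was above 0, and their summed level was 241 to 337 CPM in KO and 394 to 481 CPM in WT. Cd8b1 was at 13.5, 14.1 and 12.3 CPM in KO, against 75.3, 93.3 and 87.2 CPM in WT (-2.68, edgeR adjusted p = 0.0166), and Cd8a at 46.9, 45.4 and 26.6 CPM in KO, against 118, 176 and 157 CPM in WT. NK cell markers summed to 61.6 to 358 CPM in KO and 45.5 to 342 CPM in WT over 12 genes, with 6 of 7 tested above 0. Most of the high sums was Gzma, at 321 CPM in KO replicate 3 and 315 CPM in the library labelled WT replicate 3, against 35.3 to 70.8 CPM elsewhere. Of the defining NK genes, Ncr1 was at 0.32, 2.04 and 0.30 CPM in KO and 0.04 to 0.14 CPM in WT. Klrb1c was at 0.87 to 1.91 CPM in KO and 0.18 to 0.79 CPM in WT, and Klra8 was listed at 0. Ncr1, too low to be tested, had at most 27 counts in any library, and Klrb1c at most 25. Markers of gamma delta and NKT cells, 5 of 8 of which were found, summed to 84.4 to 160 CPM in KO and 29.6 to 61.8 CPM in WT. All 4 of 4 tested were above 0. Most of each sum was Slamf6, at 57.7, 128 and 66.0 CPM in KO and 50.8, 56.3 and 20.7 CPM in WT. Zbtb16 was at 15.5 to 28 CPM in KO and 3.84 to 7.55 CPM in WT. Sox13 and Blk were at no more than 1.46 and 1.92 CPM in any library. B cell markers summed to 5.89 to 8.72 CPM in KO and 6.16 to 22.3 CPM in WT (0 of 2 tested above 0), with Ms4a1 at no more than 4 counts in any library. Macrophage and dendritic cell markers summed to 19.4 to 42.7 CPM in KO and 11.9 to 18.5 CPM in WT (2 of 2 tested above 0). Most of each sum was Ccr2 and Cd68. Ccr2 was at 9.23, 37.1 and 15.9 CPM in KO and 10.2, 15.2 and 10.8 CPM in WT. Cd68 was at 8.14, 4.83 and 4.91 CPM in KO and 1.40, 2.67 and 3.98 CPM in WT. Of the 12 markers found, 8 had at most 10 counts in every library. Csf1r, Lyz2 and C1qa were listed at 0 in all libraries, as was the ribosomal protein gene Rpl26, which every cell uses. The part of these cells in the values of the 8 genes was not tested.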

How the data were processed

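RNA from 3 KO and 3 WT cultures of nTreg cells was read as 75-bp single ends in stranded mRNA libraries and run through VIPER, per the design text of the series. Alignment used STAR 2.4.2a, per the file headers, and build mm9, per the submitters' processing notes. Which program counted the reads, with which annotation and whether by strand, is not given in the sources used here. The authors deposited whole-number counts for 24982 symbols, not normalized, and FPKM for 24917 symbols, normalized for length and depth. They also deposited an alignment report, in which 77.45% to 81.33% of reads mapped uniquely. Dates replaced the symbols of 26 entries (0.271% of counts), which count toward library sizes and are not named.

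The test was edgeR's quasi-likelihood F test (edgeR 4.0.16, R 4.3.3), after TMM scaling and filterByExpr at a minimum count of 10. P-values were Benjamini-Hochberg adjusted over 11772 genes (threshold 0.05). DESeq2 1.42.0 and limma 3.58.1 are named where they were used. Errors of log2 fold changes come from the F statistic, and CPM are TMM-normalized. Likeness to Ifng used log2 CPM with a prior count of 0.5, over genes with a mean of at least 2 CPM. GC content and length of the longest transcript came from GENCODE M21 (GRCm38) for 11674 of 11772 tested genes (99.2%), and the correction used lowess curves per library as offsets. Symbols in capitals were matched to mouse symbols for 24464 entries.

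The 8 genes, the lists and the rule for named genes were chosen with earlier results of these data known. The rule named the 8 genes, Srsf1, up to 4 genes of each list with the smallest p and any past the threshold, 5 genes most like Ifng, and defining markers, of which 2 genes are not reported here. Serbp1, Gzma, Gzmb, Prf1, Fasl, Bhlhe40, Ctla4, Gbp2, Gbp4, Gbp6, Il12b, Klra8, Lyz2, C1qa and Rpl26, and the list genes DESeq2 called, were named after their values were seen. So were Slamf6, Sox13, Blk, Ccr2 and Cd68. The other settings tried were other scalings and filters, DESeq2, voom with and without quality weights, a block for replicate number, leaving out each library, and limma on FPKM values (log2 after adding 1 or 0.1). Those added after seeing the data were sex as a covariate, the GC and length correction, and leaving out the library labelled WT replicate 3 together with KO replicate 1. Replicates were taken as separate animals, and no 2 libraries agreed within sampling noise (chi-square per degree of freedom 22.0 to 375). A count of 3 corresponds to 0.109 to 0.295 CPM, covering counting error only. The pipeline was tested on simulated data.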

Additional observations from a re-analysis of the deposited data

How the results depend on the processing

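None of the 8 genes passed the threshold under any of the 21 alternatives to the edgeR test. Their log2 fold changes kept their direction except by library size alone for Ifngr2 (0.0002842) and with 1 library left out. There Ifng ran from -0.13 (without KO replicate 2) to 0.57, Il12rb1 from -0.084 (without KO replicate 1) to 0.84, Ifngr1 from -0.033 (without WT replicate 1) to 0.48, and Ifngr2 from -0.16 to 0.00648 (without WT replicate 1). Adjusted p ranged over settings from 0.0784 to 0.999 for Il12rb2 and from 0.485 to 0.999 for Ifng. Socs1 ran from -0.045 (without KO replicate 1) to 1.78, and stood at -0.030 without that library and the one labelled WT replicate 3. The ratio of Tbx21 to Eomes differed by -0.86 to 0.016 with 1 library left out, and that of Ifngr2 to Ifngr1 by -0.657 to 0.00623.

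The number of genes called overall was 2 in the main test, 6 without a filter, 121 in DESeq2, 1 in voom, 229 in voom with quality weights, 0 in limma on log2(FPKM + 1) without a filter (1040 at an unadjusted p under 0.05), 0 with sex as a covariate (695), 7 with the GC and length correction, 80 without the library labelled WT replicate 3 and KO replicate 1, and 0 to 3 with 1 library left out (509 to 1272). Calls in the lists went from 0 to 5 (T-bet and Th1 genes), 2 (interferon gamma-induced) and 2 (opposing regulators) in DESeq2. In voom with quality weights they were 7, 4 and 5, and 1 for interleukin-12 and interleukin-18 signalling. The GC and length correction gave 1 and 1 for the first 2 lists, and leaving out those 2 libraries gave 1, 2, 3 and 1. No list call appeared with 1 library left out.

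The replicate number as a block gave 1 call, none of the 2 of the main test. The numbers were not taken to pair the samples: deviations from the group means correlated at -0.338, 0.152 and 0.143 for replicates 1, 2 and 3, and KO replicate 1 correlated better with WT replicate 2 than with its own number. As KO replicate 1 is part of its group's mean, its deviation enters those of the other KO libraries. These correlations therefore cannot exclude a pairing, and replicate 2 held Y-linked counts in both genotypes. The cause of the changes in calls between settings was not tested. Eomes and Ifngr2 had the fewest reads. Eomes had 328 to 428 reads in KO and 287 to 502 in WT, and Ifngr2 318 to 624 reads in KO and 728 to 800 in WT. The standard errors of their log2 fold changes (0.34 and 0.24) were nevertheless below that of Ifng (0.35).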

Other observations

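Some genes were highest in the same library number of both genotypes. Gzma, a granzyme, was at 321 CPM in KO replicate 3 and 315 CPM in the library labelled WT replicate 3, against 45.0 and 70.8 CPM in the other KO libraries and 35.3 and 45.9 CPM in the other WT libraries. Prf1, which encodes perforin, was at 41.9 CPM in KO replicate 3 and 80.7 CPM in the library labelled WT replicate 3, the highest of each group, against 33.8 and 17.5 CPM in the other KO libraries and 10.6 and 11.7 CPM in the other WT libraries. Gzmb, whose KO libraries all lay below the WT libraries, was highest within each genotype in the same libraries, at 3477 CPM in KO replicate 3, against 1820 and 2155 CPM in the other KO libraries, and at 7644 CPM in the library labelled WT replicate 3, against 5233 and 4222 CPM in the other WT libraries. Il12rb2 was likewise highest there within each genotype. Nkg7, a cytotoxic granule gene, was not: it was at 80.3, 48.3 and 40.3 CPM in KO and 35.3, 49.4 and 89.5 CPM in WT. These genes were picked after their values were seen, and no test was made.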
